A study of Mus musculus with 12 samples.

Results

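Hearts of mouse embryos in which both Asb2 and Flna were floxed were compared with control hearts at embryonic day 9.5. The 3 double mutant libraries and the 3 control libraries, 6 of the 12 libraries of the series, were taken by their labels and column names. In all, 14015 of the 15172 genes listed were tested, those averaging 1 CPM or more over these 6 libraries. CPM stands for read counts scaled to library size by the authors. The double mutant was labelled Asb2 fl/fl with Flna fl/fl, and the control Asb2 fl/+, so that the control also carried 1 floxed Asb2 allele. A further 3 libraries labelled Asb2 fl/fl, called Asb2 cKO here (conditional knockout), and 3 labelled Asb2 fl/+ with Flna fl/fl, called Flna-labelled here, served as side comparisons. All 4 groups carried the Cre recombinase labelled NkxCre and were of the strain given as C57/BL 6, and total RNA was taken from hearts. A Cre of this name is usually driven by the cardiac transcription factor gene Nkx2-5 and acts in heart muscle cells and their progenitors, and in part of the endocardium, but not in every cell of a dissected heart. The labels do not say whether a library is 1 heart or a pool, or whether the libraries of a group come from separate litters, so the p-values speak only to the spread among these libraries.

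ASB2 is the substrate-binding subunit of a ubiquitin ligase built on cullin 5, and the filamins, long proteins that crosslink actin filaments and tether them to membrane receptors, are its best known substrates. Filamin A is the product of Flna, on the X chromosome. At this stage the heart is a looped, beating tube of muscle lined by endocardium, its chambers are starting to form trabeculae, its metabolism is largely glycolytic, and primitive red cells from the yolk sac pass through it. The comparison asks which transcripts differ when both the ligase subunit and its substrate are targeted in the heart, and the side comparison with Asb2 cKO asks whether the Flna alleles alter the changes seen with Asb2 alone.

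Depth in listed genes ran from 29798424 to 42473118 reads over the 6 compared libraries, and a single read equalled 0.0239 to 0.0342 CPM. Heart muscle genes were high in every library: the summed level of the 35 sarcomere genes was 65496, 43904 and 46031 CPM in the control and 42277, 60294 and 65053 CPM in the double mutant libraries. Xist, made only from an inactive X chromosome, stood at 0.823, 302 and 106 CPM in the control and 0.0477, 0.546 and 9.34 CPM in the double mutant libraries. The Y-linked gene Ddx3y stood at 58.6, 0 and 51.4 CPM in the control and 73.1, 82.3 and 77.2 CPM in the double mutant libraries, and of the 6 libraries only control replicate 2 had none of its reads. Control replicate 3 was high for both Xist and Ddx3y. Sex-linked transcripts thus differed between libraries, and a fit with Xist as a covariate was among the alternatives. Hemoglobin genes took 0.708 to 0.782% of the signal in the control and 0.0332 to 0.0604% in the double mutant. In bulk samples such as these, fewer cells of a type and less RNA per cell cannot be told apart.

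Of the targeted genes, Asb2 was lower and Flna higher in the double mutant. Asb2 (ENSMUSG00000021200, chr12:103321142-103356001, minus strand, GRCm38) stood at 289, 183 and 218 CPM in the control and 122, 121 and 153 CPM in the double mutant libraries. The groups did not overlap, and Asb2 fell (log2 fold change -0.78, SE 0.17, limma adjusted p = 0.00724). More than 100 CPM remained in each double mutant library. Asb2 was at 77.8, 163 and 115 CPM in the Asb2 cKO libraries and at 125, 113 and 197 CPM in the Flna-labelled libraries. Between the double mutant and the Flna-labelled hearts, labelled with 1 floxed Asb2 allele, Asb2 did not pass (log2 fold change -0.10, SE 0.21, limma adjusted p = 0.737). Flna (ENSMUSG00000031328, chrX:74223461-74249820, minus strand) stood at 490.3, 554 and 721 CPM in the control and 1012, 1012 and 1146 CPM in the double mutant libraries. All 3 libraries labelled Flna fl/fl together with Asb2 fl/fl were thus above all 3 controls, and Flna rose (log2 fold change 0.86, SE 0.15, limma adjusted p = 0.00255). With Xist as a covariate the log2 fold change of Flna was 1.04 (limma adjusted p = 0.00618). The Flna-labelled libraries, at 958, 1011 and 989.5 CPM, and the Asb2 cKO libraries, at 1032, 869 and 725 CPM, each lay above the highest control library. The counts of Asb2 and Flna cover the whole gene and do not show whether a floxed exon is missing from the transcripts. Deletion of Asb2 or Flna was thus not checked by them, and the groups are named below by their labels. All 3 double mutant libraries held Y-linked transcripts while their label gives 2 floxed alleles of the X-linked Flna.

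Flnc, the muscle filamin, stood at 723, 429.5 and 621 CPM in the control and 852, 1176 and 1429 CPM in the double mutant libraries. Flnc rose (log2 fold change 0.96, SE 0.23, limma adjusted p = 0.0129). The call of Flnc was lost without double mutant replicate 2 (limma adjusted p = 0.0505) or with Xist as a covariate (limma adjusted p = 0.0835). Of the 13 genes listed for the ASB2 ligase, its substrates and the filamins, 5 rose and 5 fell, where 15.6% of all genes tested rose and 16.7% fell. The rises included Jak3, a kinase reported as a substrate (log2 fold change 0.87, SE 0.19, limma adjusted p = 0.0071), and Smad9 (log2 fold change 0.64, SE 0.15, limma adjusted p = 0.00881). The highest log2 fold change in the list, 1.21, belonged to a member not named in this paragraph. Besides Asb2 itself the falls were in ligase components: the RING proteins Rnf7 (-0.46) and Rbx1 (-0.38), the elongin C gene Tceb1 (-0.55) and the F-box gene Skp2 (-0.46), all as log2 fold changes, while Cul5 (log2 fold change -0.19, SE 0.11, limma adjusted p = 0.207) did not pass. The counts of rises and falls were 5 and 3 without control replicate 1, 5 and 1 without control replicate 2, 4 and 2 without double mutant replicate 2 and 5 and 3 without double mutant replicate 3. The genes beyond the named-gene rule in this list were picked because they passed, after their values were seen.

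Over all 14015 genes tested, limma on log2(CPM + 0.5) called 4523 at an adjusted p under 0.05, which is 32.3%: 2182 genes (15.6%) higher and 2341 (16.7%) lower in the double mutant. At least 2-fold changes were more often upward, with 670 calls higher and 376 lower, while the median log2 fold change of all genes was 0.01. The authors' deposited table for these libraries holds 2152 genes higher and 2228 lower at a false discovery rate under 0.05, of 15172. Without double mutant replicate 2 the calls came to 1399 higher and 1484 lower, and with Xist as a covariate to 1494 higher and 1536 lower. Against the Asb2 cKO the double mutant had 3 calls of 14037 genes (0.0214%), and against the Flna-labelled hearts 4394 of 13954 (31.5%). The Asb2 cKO against the same control libraries gave 3033 calls of 14034 genes (21.6%), 1505 higher (10.7%) and 1528 lower (10.9%). The Flna-labelled hearts gave 10 of 13891 (0.072%), 4 higher (0.0288%) and 6 lower (0.0432%). These comparisons share libraries, so their values are set side by side and are not independent.

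**Figure D1:**
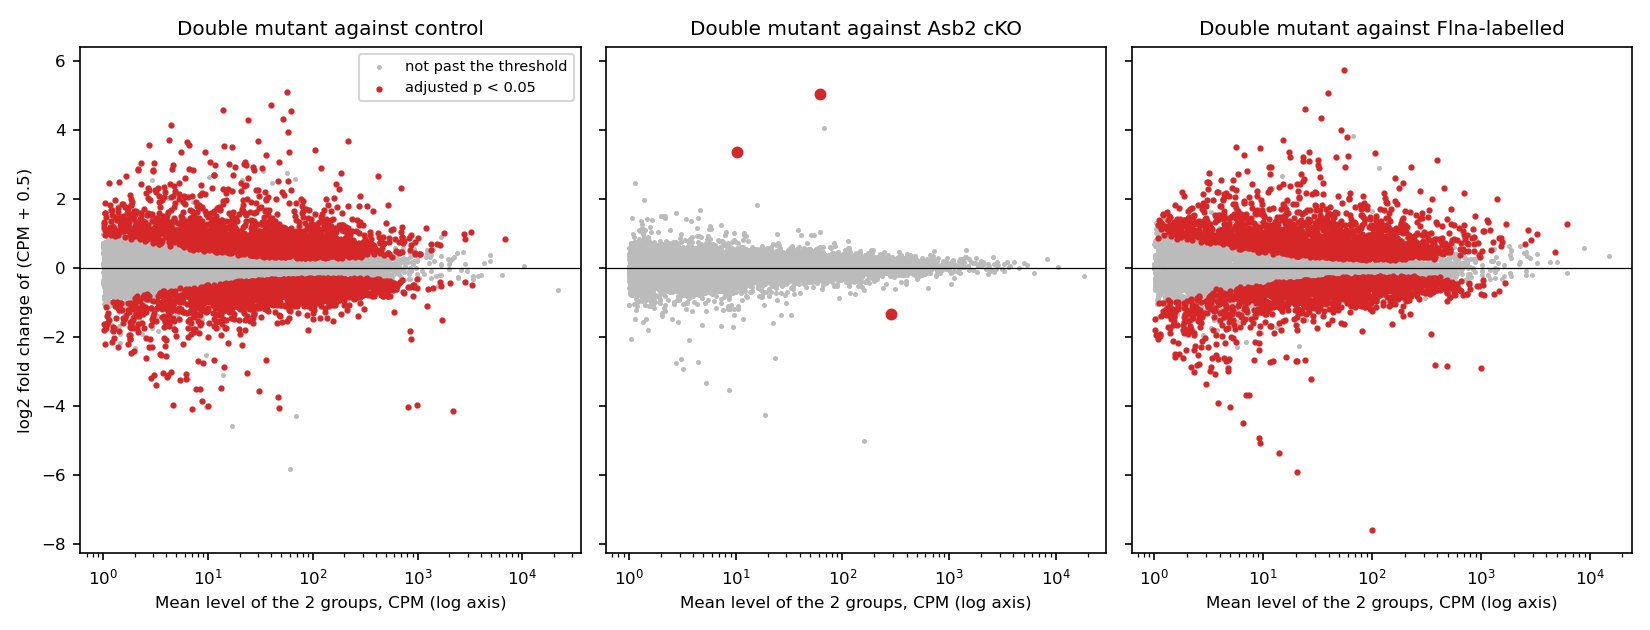
Each panel plots the log2 fold change of every gene tested (vertical axis) against its mean level in CPM (horizontal log axis), for the double mutant against the control, against the Asb2 cKO and against the Flna-labelled hearts; coloured points passed an adjusted p under 0.05. The first panel holds 4523 coloured genes, the second 3 and the third 4394.

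Most genes of the hypoxia response rose. In this pathway prolyl hydroxylases of the EGLN family use oxygen to mark HIF alpha subunits for destruction by the VHL ligase; when they are inactive, HIF binds the core sequence ACGTG at its targets, among them genes for glucose uptake, glycolysis, angiogenesis and mitophagy, and the hydroxylases themselves. Of 39 tested members 34 rose and 1 fell, with a median log2 fold change of 1.89, against 15.6% and 16.7% of all genes. The 4 members that did not pass were Angptl4 (-1.04), Lox (1.13), Hif3a (0.74) and Anln (-0.22), and the 1 that fell was Pfkfb4, a regulator of glycolytic flux (log2 fold change -0.86, SE 0.25, limma adjusted p = 0.0273), which did not pass without double mutant replicate 2.

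Among the enzymes and feedback genes of this list, Ndufa4l2, a mitochondrial protein made under low oxygen, stood at 3.09, 2.63 and 1.78 CPM in the control and 85.5, 75.9 and 69 CPM in the double mutant libraries. The groups were far apart and did not overlap (log2 fold change 4.71, SE 0.19, limma adjusted p = 6.44e-07). Egln3, one of the HIF prolyl hydroxylases, stood at 9.87, 8.92 and 11.4 CPM in the control and 119.9, 97.1 and 109 CPM in the double mutant libraries. Egln3 rose (log2 fold change 3.37, SE 0.14, limma adjusted p = 6.44e-07). P4ha2, a collagen prolyl hydroxylase subunit, stood at 46.3, 46.7 and 49.6 CPM in the control and 336, 312 and 321 CPM in the double mutant libraries. P4ha2 rose (log2 fold change 2.75, SE 0.10, limma adjusted p = 3.28e-07). Vldlr, a lipoprotein receptor, stood at 16.1, 16 and 21.8 CPM in the control and 197, 185 and 199 CPM in the double mutant libraries. Vldlr rose (log2 fold change 3.41, SE 0.13, limma adjusted p = 6.44e-07). Ddit4, an inhibitor of mTOR complex signalling, stood at 24.9, 33.6 and 33.2 CPM in the control and 550.5, 357 and 315 CPM in the double mutant libraries, again without overlap (log2 fold change 3.68, SE 0.21, limma adjusted p = 9.02e-06). Ndrg1, a stress-induced gene, stood at 3.69, 4.03 and 4 CPM in the control and 64.3, 43.2 and 61.9 CPM in the double mutant libraries. Ndrg1 rose (log2 fold change 3.67, SE 0.18, limma adjusted p = 1.79e-06). Further rises, as log2 fold changes, were the angiogenic factor Vegfa (2.29), the pH-regulating carbonic anhydrases Car9 (3.56) and Car12 (2.88), the mitophagy receptors Bnip3 (2.09) and Bnip3l (1.24), the circadian and hypoxic repressor Bhlhe40 (2.52), the vasodilator peptide Adm (2.26), the hydroxylase Egln1 (1.79), the histone demethylase Kdm3a (1.34) and the collagen-modifying enzymes P4ha1 (1.81), Plod2 (1.80) and Plod1 (0.75); those beyond the named-gene rule were picked after their values were seen.

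Promoter sequence bears on this list because its best known regulator reads a short core. The 250 bases before the RefSeq start (build GRCm38.p6) were found for 28 of the 39 members, and ACGTG stood in 14 of them on either strand (50%), against 4477 of 27025 promoters of the same length (16.57%). Of 18 glycolysis promoters 6 held it (33.33%). A match is a description of these letters and not evidence of binding, and other members hold no match in this window, where distal sites would not be seen. Shown are promoters of members that rose, 5′ to 3′ on the gene's strand with ACGTG or its reverse complement in capitals: Egln3 (chr12:54203875-54204124, minus strand), P4ha2 (chr11:54100674-54100923, plus strand), Ddit4 (chr10:59951771-59952020, minus strand) and Bnip3 (chr7:138909507-138909756, minus strand), where the 2 strands' matches overlap in the palindrome CACGTG.
Egln3: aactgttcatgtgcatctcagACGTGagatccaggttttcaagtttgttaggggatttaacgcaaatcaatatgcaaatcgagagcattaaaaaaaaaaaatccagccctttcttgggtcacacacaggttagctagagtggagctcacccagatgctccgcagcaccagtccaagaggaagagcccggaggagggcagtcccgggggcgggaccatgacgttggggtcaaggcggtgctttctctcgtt
P4ha2: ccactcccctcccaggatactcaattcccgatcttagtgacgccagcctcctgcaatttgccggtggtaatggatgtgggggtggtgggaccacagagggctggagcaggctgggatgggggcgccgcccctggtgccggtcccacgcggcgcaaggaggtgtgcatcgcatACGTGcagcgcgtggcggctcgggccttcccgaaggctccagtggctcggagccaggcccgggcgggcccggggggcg
Ddit4: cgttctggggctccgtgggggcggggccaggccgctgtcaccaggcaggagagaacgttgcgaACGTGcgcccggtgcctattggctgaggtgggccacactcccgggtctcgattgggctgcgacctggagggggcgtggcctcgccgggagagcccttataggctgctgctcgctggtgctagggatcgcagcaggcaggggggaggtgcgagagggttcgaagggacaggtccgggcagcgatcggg
Bnip3: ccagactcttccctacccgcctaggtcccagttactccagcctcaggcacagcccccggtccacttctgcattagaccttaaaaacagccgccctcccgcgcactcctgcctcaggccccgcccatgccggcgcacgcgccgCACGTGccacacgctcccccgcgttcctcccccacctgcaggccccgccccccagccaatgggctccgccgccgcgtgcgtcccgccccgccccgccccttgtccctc

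Glycolysis genes rose with this group. Of 19 tested members 16 rose (84.2%) and 0 fell, where 15.6% of all genes tested rose and 16.7% fell. Their median log2 fold change was 0.98. The summed level of the list was 14331, 10682 and 10914 CPM in the control and 21676, 22202 and 22230.2 CPM in the double mutant libraries. At the entry step, the glucose transporter gene Slc2a3 stood at 307, 193 and 201 CPM in the control and 1229.8, 1098 and 1127 CPM in the double mutant libraries. Slc2a3 rose (log2 fold change 2.33, SE 0.17, limma adjusted p = 2.07e-05). Hk2, a hexokinase, stood at 279.7, 202 and 214 CPM in the control and 806, 813 and 837 CPM in the double mutant libraries, with all double mutant libraries above all controls (log2 fold change 1.83, SE 0.13, limma adjusted p = 1.87e-05). Eno2, an enolase usually high in neurons, stood at 8.06, 5.02 and 5.58 CPM in the control and 50.7, 67.2 and 76.2 CPM in the double mutant libraries. Eno2 rose (log2 fold change 3.28, SE 0.20, limma adjusted p = 7.27e-06). The enzymes in between also rose, from Pfkp (1.65) and Aldoc (2.28) through Gapdh (1.05) and Pgk1 (1.06) to Pkm (0.85), and so did Pdk1, the kinase that keeps pyruvate out of the citric acid cycle (log2 fold change 1.29, SE 0.12, limma adjusted p = 9.16e-05). Ldha (log2 fold change 0.47, SE 0.17, limma adjusted p = 0.0528), Hk1 (log2 fold change 0.39, SE 0.19, limma adjusted p = 0.139) and Pfkm (log2 fold change 0.03, SE 0.13, limma adjusted p = 0.858) did not pass. Over the alternative settings the counts were 14 to 17 rises and 0 falls.

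**Figure D2:**
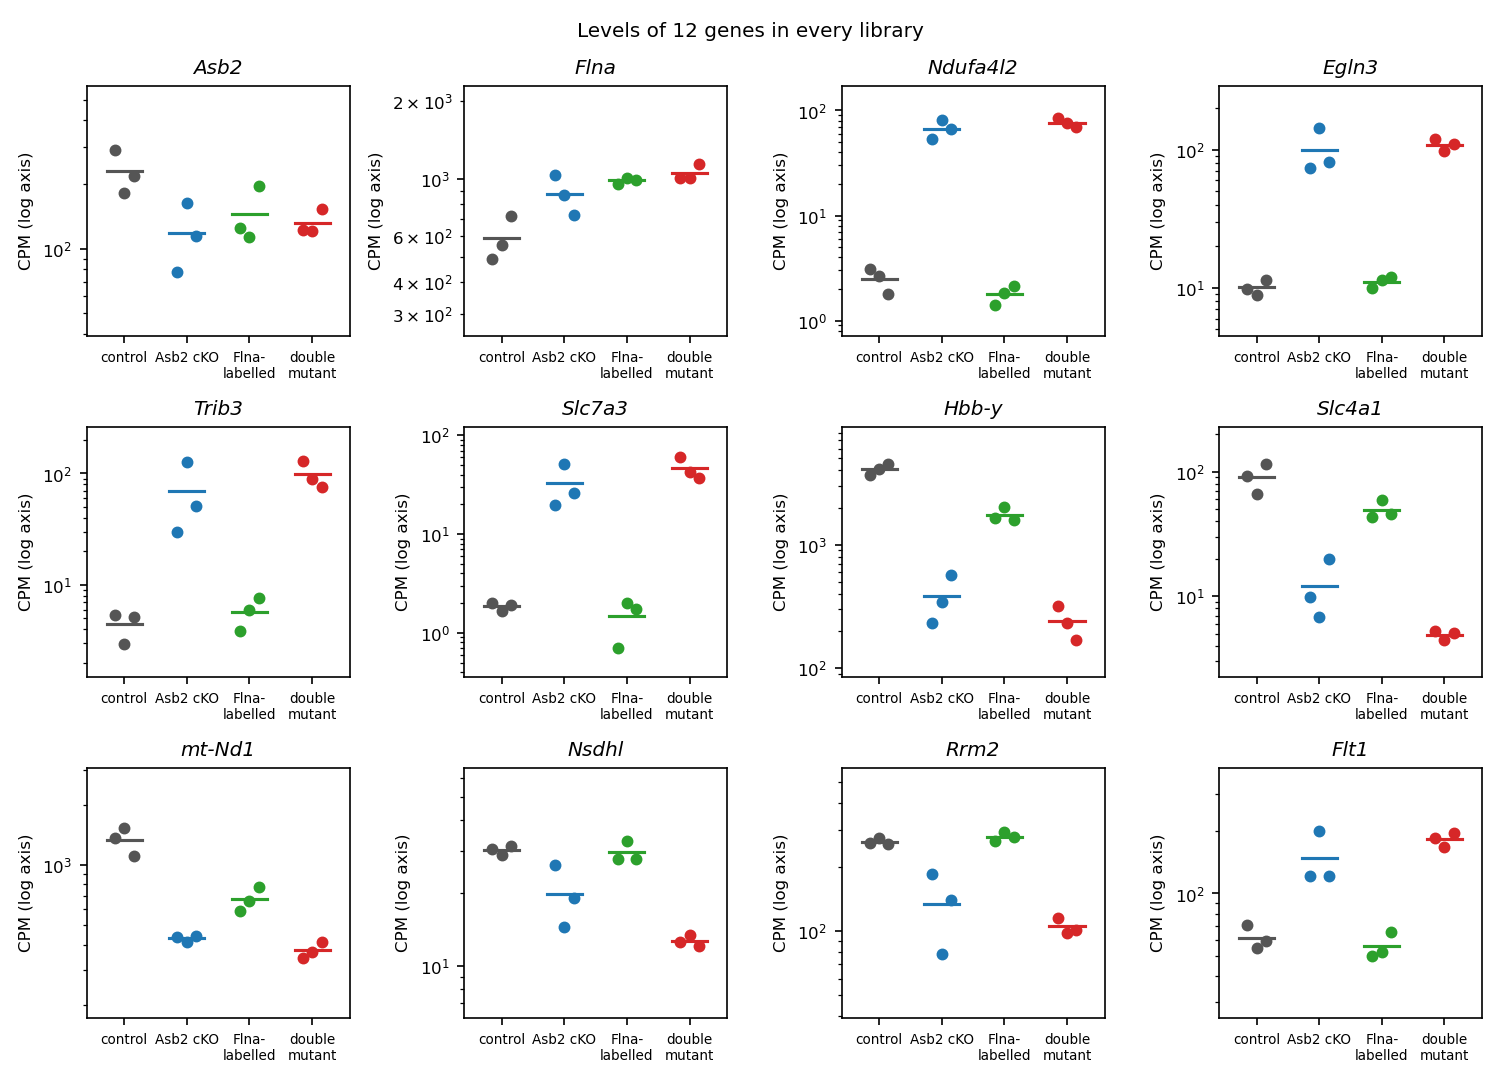
Levels of 12 genes (log axis, CPM) in the 4 groups; each point is 1 library and each line the mean of 3. For Ndufa4l2, Egln3, Trib3, Slc7a3 and Flt1 the double mutant and Asb2 cKO libraries lie above the control and Flna-labelled libraries, and for Hbb-y, Slc4a1 and mt-Nd1 below them, while Flna is higher in the double mutant (1012 to 1146 CPM) than in the control.

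Genes of the integrated stress response rose without exception among those tested. In this response, kinases that sense missing amino acids, unfolded protein or heme shortage phosphorylate the initiation factor eIF2, and the transcription factor ATF4 is then translated and drives amino acid uptake and synthesis genes. All 15 tested members rose, where 15.6% of all genes tested did. Their median log2 fold change was 2.12. The summed level of the list was 469.6, 458 and 434 CPM in the control and 1828, 1435 and 1394 CPM in the double mutant libraries. Atf4 itself rose moderately (log2 fold change 1.08, SE 0.14, limma adjusted p = 0.000527), and so did its partners and relatives Atf3 (2.21), Atf5 (1.57), Ddit3 (2.37), Cebpb (1.24) and Cebpg (0.67), as log2 fold changes. Chac1, which degrades glutathione, stood at 0.395, 0.933 and 0.582 CPM in the control and 38.8, 23.9 and 19.5 CPM in the double mutant libraries. The control level was under 1 CPM, so that Chac1 passed the filter through the double mutant libraries. Its fold on this scale is understated by the pseudocount (log2 fold change 4.59, SE 0.29, limma adjusted p = 8.33e-06). Trib3, a pseudokinase induced by ATF4, stood at 5.4, 2.96 and 5.13 CPM in the control and 131, 89.1 and 75.3 CPM in the double mutant libraries. Trib3 rose (log2 fold change 4.31, SE 0.25, limma adjusted p = 8.74e-06). Stc2, a secreted glycoprotein shared with the hypoxia list, stood at 6.45, 6.78 and 6.61 CPM in the control and 139.9, 99.2 and 91.9 CPM in the double mutant libraries, without overlap (log2 fold change 3.94, SE 0.16, limma adjusted p = 6.78e-07). Ero1l, an oxidase of the endoplasmic reticulum also held by both lists, stood at 54.8, 47.7 and 57.4 CPM in the control and 235, 193 and 209 CPM in the double mutant libraries. Ero1l rose (log2 fold change 1.99, SE 0.12, limma adjusted p = 5.41e-06). The sestrin gene Sesn2 (log2 fold change 2.53, SE 0.18, limma adjusted p = 1.54e-05) and the phosphatase subunit that ends the response, Ppp1r15a (log2 fold change 0.73, SE 0.18, limma adjusted p = 0.0138), rose as well. Vldlr, given above with the hypoxia genes, is also held by both lists, so their counts are not independent. With Xist as a covariate 13 of the 15 members rose and 0 fell.

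Genes of amino acid synthesis, many of them known ATF4 targets, rose for the most part. In the list of serine, one-carbon, asparagine and proline synthesis 10 of 15 tested members rose (66.7%) and 3 fell (20%). The shares of all genes tested were 15.6% and 16.7%. The counts were 9 and 1 without double mutant replicate 2. The rises held the mitochondrial folate branch: Aldh1l2 stood at 6.42, 6.45 and 9.1 CPM in the control and 71.4, 52.5 and 48.9 CPM in the double mutant libraries. Aldh1l2 rose (log2 fold change 2.89, SE 0.19, limma adjusted p = 9.02e-06). Shmt2 stood at 91, 90.3 and 97.2 CPM in the control and 347, 266 and 242 CPM in the double mutant libraries. Shmt2 rose (log2 fold change 1.60, SE 0.13, limma adjusted p = 4.82e-05). Mthfd1l stood at 78.4, 67 and 76.6 CPM in the control and 214, 182 and 181 CPM in the double mutant libraries. Mthfd1l rose (log2 fold change 1.37, SE 0.11, limma adjusted p = 4.33e-05). The falls included the cytosolic folate enzymes Shmt1 (log2 fold change -0.59, SE 0.14, limma adjusted p = 0.0116) and Mthfd1 (log2 fold change -0.52, SE 0.14, limma adjusted p = 0.0176). Pycr1, of proline synthesis, stood at 13.8, 14.3 and 14.8 CPM in the control and 53.2, 56 and 41.3 CPM in the double mutant libraries. Pycr1 rose (log2 fold change 1.77, SE 0.14, limma adjusted p = 3.82e-05). Asns, the asparagine synthetase (log2 fold change 1.82, SE 0.19, limma adjusted p = 0.000208), and Cth of the transsulfuration path (log2 fold change 1.85, SE 0.36, limma adjusted p = 0.00609) rose, whereas Phgdh, the first enzyme of serine synthesis (log2 fold change 0.57, SE 0.24, limma adjusted p = 0.0979), and Psph (log2 fold change 0.42, SE 0.17, limma adjusted p = 0.0926) did not pass.

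Amino acid transporter genes rose in 8 of 11 tested cases (72.7%) and fell in 0, beside 15.6% and 16.7% of all genes tested. Slc7a3, a cationic amino acid transporter on the X chromosome, stood at 2.01, 1.67 and 1.92 CPM in the control and 60.6, 42.9 and 36.5 CPM in the double mutant libraries, without overlap (log2 fold change 4.29, SE 0.21, limma adjusted p = 1.79e-06). Slc7a5 and Slc3a2 encode the subunits of 1 heterodimeric transporter of large neutral amino acids. Slc7a5 stood at 69.8, 54.9 and 61.1 CPM in the control and 312, 235 and 222 CPM in the double mutant libraries. Slc7a5 rose (log2 fold change 2.03, SE 0.15, limma adjusted p = 1.76e-05). Slc3a2 stood at 73.8, 74 and 68.6 CPM in the control and 245, 188 and 160.5 CPM in the double mutant libraries. Slc3a2 rose (log2 fold change 1.43, SE 0.15, limma adjusted p = 0.000146). The cystine transporter Slc7a11 (2.37) and the transporters Slc1a4 (2.01), Slc6a9 (1.24), Slc7a1 (0.91) and Slc38a2 (0.40) also rose, as log2 fold changes, and Slc38a1 (0.14), Slc1a5 (0.19) and Slc7a6 (-0.09) did not pass.

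The composite element read by ATF4 with a C/EBP partner, spelled here TGATGNAAN and searched on both strands, stood in 3 of 14 promoters found for the integrated stress response list (21.43%), 2 of 12 for the synthesis list (16.67%) and 1 of 7 for the transporters (14.29%), against 949 of all 27025 (3.512%). These counts are small. Of the matching promoters, 2 are shown as examples because their genes rose, with the match in capitals: Chac1 (chr2:119350992-119351241, plus strand, match on the opposite strand) and Asns (chr6:7693210-7693459, minus strand).
Chac1: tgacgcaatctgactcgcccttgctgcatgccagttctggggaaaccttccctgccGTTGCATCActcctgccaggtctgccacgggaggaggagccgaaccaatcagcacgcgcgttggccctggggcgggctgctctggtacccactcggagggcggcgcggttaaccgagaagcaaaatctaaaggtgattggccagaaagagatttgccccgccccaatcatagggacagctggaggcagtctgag
Asns: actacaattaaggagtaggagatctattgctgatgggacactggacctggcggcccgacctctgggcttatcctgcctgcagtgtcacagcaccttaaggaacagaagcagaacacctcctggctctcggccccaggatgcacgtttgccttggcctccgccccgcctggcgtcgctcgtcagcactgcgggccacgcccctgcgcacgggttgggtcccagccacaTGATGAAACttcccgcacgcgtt

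Chaperones of the endoplasmic reticulum, which rise in the unfolded protein response that can accompany ATF4, were lower. Of 17 tested members 10 fell (58.8%) and 0 rose, where 16.7% of all genes tested fell and 15.6% rose. Their median log2 fold change was -0.49. Dnajb11, a co-chaperone of BiP, stood at 203, 181 and 172 CPM in the control and 90.6, 95.2 and 108 CPM in the double mutant libraries, and every double mutant library was below every control (log2 fold change -0.92, SE 0.11, limma adjusted p = 0.000418). Sdf2l1 stood at 60.9, 69.6 and 54.8 CPM in the control and 29, 26.2 and 32.6 CPM in the double mutant libraries. Sdf2l1 fell (log2 fold change -1.06, SE 0.13, limma adjusted p = 0.000477). Dnajc3, an inhibitor of the eIF2 kinases, stood at 106, 109 and 119 CPM in the control and 62.3, 54.6 and 65 CPM in the double mutant libraries. Dnajc3 fell (log2 fold change -0.87, SE 0.11, limma adjusted p = 0.000477). Hspa5, which encodes BiP (log2 fold change -0.58, SE 0.11, limma adjusted p = 0.00488), Calr (log2 fold change -0.59, SE 0.12, limma adjusted p = 0.00504) and Creld2 (log2 fold change -1.03, SE 0.13, limma adjusted p = 0.000496) fell too, while Hsp90b1 (log2 fold change -0.20, SE 0.12, limma adjusted p = 0.235) and Xbp1 (log2 fold change -0.13, SE 0.11, limma adjusted p = 0.369) did not pass. With Xist as a covariate 8 fell and 1 rose.

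Genes of mitochondrial respiration fell, although by less than the hypoxia and stress genes rose. Of 47 tested nuclear genes for respiratory chain subunits 39 fell (83%) and 0 rose, beside 16.7% and 15.6% of all genes tested. Their median log2 fold change was -0.52. The summed level of the list was 19911, 18237 and 16949 CPM in the control and 12206, 13568 and 12839 CPM in the double mutant. The falls reached every complex of the chain and ATP synthase, from complex I (Ndufs1, -0.61) and complex II (Sdhb, -0.73) to complexes III (Cyc1), IV (Cox6a1, -0.74) and V (Atp5g1). Atp5g1, a ring subunit of ATP synthase, stood at 141, 115 and 112 CPM in the control and 51.6, 59.5 and 60.8 CPM in the double mutant libraries. Atp5g1 fell (log2 fold change -1.09, SE 0.12, limma adjusted p = 0.000278). Cycs, cytochrome c, stood at 21.5, 24.1 and 21.7 CPM in the control and 7.49, 11.6 and 8.54 CPM in the double mutant libraries, again without overlap (log2 fold change -1.26, SE 0.18, limma adjusted p = 0.000888). Cyc1, cytochrome c1 of complex III, stood at 417, 351 and 345 CPM in the control and 195, 203 and 234 CPM in the double mutant libraries. Cyc1 fell (log2 fold change -0.82, SE 0.12, limma adjusted p = 0.00103). Over the alternative settings 29 to 41 members fell and 0 rose.

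Transcripts of the mitochondrial genome fell. Of 8 tested genes 7 fell (87.5%) and 1 rose (12.5%), beside 16.7% and 15.6% of all genes tested. Their median log2 fold change was -1.35. The complex I subunit gene mt-Nd1 stood at 1366, 1528 and 1107 CPM in the control and 342, 366 and 414 CPM in the double mutant libraries, with the highest double mutant library far below the lowest control (log2 fold change -1.83, SE 0.14, limma adjusted p = 2.84e-05). The cytochrome b gene mt-Cytb stood at 1434, 1649 and 1051 CPM in the control and 266, 300.3 and 440.4 CPM in the double mutant libraries. mt-Cytb fell (log2 fold change -2.05, SE 0.22, limma adjusted p = 0.000285). The cytochrome oxidase gene mt-Co1 stood at 2459, 2979 and 2084 CPM in the control and 691, 872 and 1081 CPM in the double mutant libraries. mt-Co1 fell (log2 fold change -1.52, SE 0.19, limma adjusted p = 0.000459). The rise was mt-Nd3, which had no read in any control library and 278 reads over the double mutant libraries, at 1.98, 2.61 and 2.23 CPM. It passed the filter of 1 CPM only through the double mutant libraries, so its call describes these reads alone. The call of mt-Nd3 is absent under the filter of 5 CPM and in the joint fit of 4 groups. Reads of mitochondrial genes may be shared with near-identical nuclear copies, and how the authors' counting treated them is not given in the sources used here.

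In the citric acid cycle and pyruvate dehydrogenase 10 of 18 tested members fell (55.6%) and 0 rose, with a median log2 fold change of -0.56. Among all genes tested 16.7% fell and 15.6% rose. Idh3a, the catalytic subunit of isocitrate dehydrogenase, stood at 344, 310.4 and 312 CPM in the control and 154, 167 and 196 CPM in the double mutant libraries. Idh3a fell (log2 fold change -0.91, SE 0.12, limma adjusted p = 0.000528). Mdh1, the cytosolic malate dehydrogenase, stood at 648, 734 and 692 CPM in the control and 349, 433 and 405 CPM in the double mutant libraries. Mdh1 fell (log2 fold change -0.81, SE 0.12, limma adjusted p = 0.00107). Pdhb of pyruvate dehydrogenase stood at 174, 167 and 167 CPM in the control and 103, 111 and 101 CPM in the double mutant libraries. Pdhb fell (log2 fold change -0.69, SE 0.10, limma adjusted p = 0.000783). In all 3 genes the double mutant libraries lay below every control. The mitochondrial enzymes Mdh2 (-0.63), Fh1 (-0.61), Ogdh (-0.59) and Dlst (-0.64) fell as well, as log2 fold changes, while citrate synthase, Cs (log2 fold change -0.30, SE 0.13, limma adjusted p = 0.113), did not pass.

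Sterol synthesis genes, the main targets of the transcription factor SREBP2, were lower almost throughout. Of 20 tested members 18 fell (90%) and 0 rose, where 16.7% of all genes tested fell and 15.6% rose. Their median log2 fold change was -0.83, with 17 to 18 falls over the alternative settings. Nsdhl, a sterol dehydrogenase on the X chromosome, stood at 30.5, 28.8 and 31.3 CPM in the control and 12.5, 13.4 and 12.1 CPM in the double mutant libraries. Nsdhl fell (log2 fold change -1.22, SE 0.13, limma adjusted p = 0.000173). The groups did not overlap. Falls covered the path from Hmgcs1 (-0.71) through Mvk (-1.02) and Fdps (-1.18) to Sqle (-0.66) and Cyp51 (-0.99), as log2 fold changes. The gene of the regulator itself, Srebf2 (log2 fold change -0.20, SE 0.13, limma adjusted p = 0.26), and Lss (log2 fold change -0.05, SE 0.14, limma adjusted p = 0.821) did not pass. The SREBP-type letters TCACNCCAC, searched on both strands, stood in 1 of 13 promoters found for this list (7.692%), that of Hmgcs1. They stood in 280 of all 27025 promoters (1.036%).

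Most red cell transcripts fell. Of 26 tested markers of primitive erythroid cells 24 fell (92.3%) and 1 rose (3.85%), beside 16.7% and 15.6% of all genes tested. Their median log2 fold change was -3.16. The summed level of the list was 8326, 8163 and 9002 CPM in the control and 1246, 1274 and 1258 CPM in the double mutant. The embryonic beta-type globin Hbb-y stood at 3668, 4119 and 4491 CPM in the control and 322, 234 and 169 CPM in the double mutant libraries. Hbb-y fell (log2 fold change -4.12, SE 0.21, limma adjusted p = 3.82e-06). The embryonic alpha-type globin Hba-x stood at 1819, 1769 and 1979 CPM in the control and 134, 127 and 97 CPM in the double mutant libraries. Hba-x fell (log2 fold change -3.97, SE 0.14, limma adjusted p = 3.28e-07). Klf1, the transcription factor that switches on globin genes, stood at 14.1, 11.7 and 15.5 CPM in the control and 0.453, 0.224 and 0.347 CPM in the double mutant libraries. Klf1 fell (log2 fold change -4.08, SE 0.25, limma adjusted p = 6.31e-06). Slc4a1, the anion exchanger of the red cell membrane, stood at 92.4, 66.8 and 114 CPM in the control and 5.25, 4.47 and 5.03 CPM in the double mutant libraries. Slc4a1 fell (log2 fold change -4.05, SE 0.19, limma adjusted p = 1.71e-06). Alas2, the erythroid enzyme that starts heme synthesis, stood at 59.5, 46.4 and 63.9 CPM in the control and 6.01, 3.77 and 3.37 CPM in the double mutant libraries. Alas2 fell (log2 fold change -3.57, SE 0.21, limma adjusted p = 5.51e-06). Hemgn stood at 15.3, 18.1 and 24 CPM in the control and 0.763, 0.944 and 0.495 CPM in the double mutant libraries. Hemgn fell (log2 fold change -3.99, SE 0.25, limma adjusted p = 8.1e-06). In each of these genes the lowest control library was several times the highest double mutant library. Tfrc, the transferrin receptor, through which growing cells take up iron, was the exception. It had a mean of 279.7 CPM in the control and 568 CPM in the double mutant libraries and rose (log2 fold change 1.00, SE 0.15, limma adjusted p = 0.00121). Sptb (log2 fold change 0.08, SE 0.17, limma adjusted p = 0.765) did not pass. Klf1 and Hemgn were under 1 CPM in every double mutant library. Both passed the filter of 1 CPM only through the control libraries. Their folds on this scale are understated by the pseudocount. The list median was -3.79 with a pseudocount of 0.1 and -2.10 with a pseudocount of 2. With the filter of 5 CPM, 18 of 20 members fell. Globin genes are near-identical in part, so reads may be split among them. The Flna-labelled libraries lay between, with Hbb-y at 1657, 2025 and 1575 CPM. The share of these markers in the changes of other lists was not tested.

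Most genes of DNA replication fell, as did some of mitosis. Of 28 tested replication genes 20 fell (71.4%) and 0 rose, where 16.7% of all genes tested fell and 15.6% rose. Their median log2 fold change was -0.63. Ccne1, cyclin E1, which starts S phase, stood at 80.8, 75.9 and 71.7 CPM in the control and 28.3, 25.3 and 23.5 CPM in the double mutant libraries. Ccne1 fell (log2 fold change -1.55, SE 0.12, limma adjusted p = 2.47e-05). Rrm2, a subunit of ribonucleotide reductase, stood at 259, 274 and 256 CPM in the control and 116, 98.6 and 102 CPM in the double mutant libraries. Rrm2 fell (log2 fold change -1.32, SE 0.10, limma adjusted p = 2.84e-05). Fen1, the flap endonuclease of lagging strand synthesis, stood at 129, 145 and 127 CPM in the control and 66.8, 57.5 and 53.8 CPM in the double mutant libraries. Fen1 fell (log2 fold change -1.17, SE 0.12, limma adjusted p = 0.000124). In all 3 the groups were well apart. Of 29 tested mitosis genes 12 fell (41.4%) and 0 rose, with a median of -0.30. Over the alternative settings 8 to 16 mitosis genes fell and 0 rose, with 8 falls without double mutant replicate 2. Ccna2, cyclin A2, stood at 289, 268 and 281 CPM in the control and 191, 194 and 204 CPM in the double mutant libraries. Ccna2 fell (log2 fold change -0.51, SE 0.10, limma adjusted p = 0.00377). Birc5, survivin, stood at 161, 169 and 130.0 CPM in the control and 104, 103 and 88.8 CPM in the double mutant libraries. Birc5 fell (log2 fold change -0.63, SE 0.13, limma adjusted p = 0.005). The proliferation markers Mki67 (log2 fold change -0.02, SE 0.10, limma adjusted p = 0.876) and Top2a (log2 fold change 0.08, SE 0.10, limma adjusted p = 0.588) did not pass. The E2F-type letters TTTNNCGC, searched on both strands, stood in 8 of 21 replication promoters found (38.1%) and in 1186 of all 27025 (4.389%). The promoters were not matched for expression or base composition.

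Among targets of p53 and genes of cell death 8 of 23 tested members rose (34.8%) and 3 fell (13%). Of all genes tested 15.6% rose and 16.7% fell. Cdkn1a, the inhibitor of cyclin-dependent kinases, stood at 16.8, 21.8 and 19.9 CPM in the control and 53, 48.1 and 46.9 CPM in the double mutant libraries. Cdkn1a rose (log2 fold change 1.32, SE 0.13, limma adjusted p = 0.000141). Bbc3, the pro-death protein PUMA, stood at 4.57, 6.2 and 7.19 CPM in the control and 19.3, 20.5 and 20.2 CPM in the double mutant libraries. Bbc3 rose (log2 fold change 1.68, SE 0.19, limma adjusted p = 0.000241). The related Pmaip1 (1.06) and Bcl2l11 (0.53) rose too. Hrk, another pro-death gene of the BCL2 family that is not in this list, was among the 10 largest rises, with 3 reads over the control libraries and 1078 over the double mutant libraries, a ratio of 279 (95% interval 95.2 to 1355, counting error only). Hrk passed the filter of 1 CPM only through the double mutant libraries. Perp stood at 46, 46.7 and 42.7 CPM in the control and 26, 30.5 and 28.5 CPM in the double mutant libraries. Perp fell (log2 fold change -0.66, SE 0.12, limma adjusted p = 0.00271). Other p53 targets such as Mdm2 (log2 fold change 0.01, SE 0.10, limma adjusted p = 0.972) and Ccng1 (log2 fold change 0.04, SE 0.13, limma adjusted p = 0.838) did not pass, and the median of the list was 0.01. The counts of rises and falls were 5 and 3 without control replicate 1 and 5 and 3 without double mutant replicate 3.

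Heart muscle genes changed in part and in both directions. Of 35 tested sarcomere genes 7 rose and 2 fell, with a median log2 fold change of 0.19, so that 20% rose where 15.6% of all genes did. Lmod2, which lengthens thin filaments, stood at 50.9, 44.5 and 49.7 CPM in the control and 110.3, 139.6 and 149 CPM in the double mutant libraries. Lmod2 rose (log2 fold change 1.44, SE 0.13, limma adjusted p = 7.26e-05). Xirp2, an actin-binding repair protein, stood at 0.921, 0.165 and 0.0684 CPM in the control and 3.24, 8.02 and 5.47 CPM in the double mutant libraries (log2 fold change 2.82, SE 0.43, limma adjusted p = 0.00128). Every control library was under 1 CPM, so Xirp2 passed the filter only through the double mutant libraries. Tcap (1.16), Myh7 (0.84) and Lmod3 (0.61) rose as well, as log2 fold changes. Smpx, a small X-linked muscle protein, stood at 192, 198 and 152 CPM in the control and 78.2, 104 and 99.3 CPM in the double mutant libraries. Smpx fell (log2 fold change -0.94, SE 0.14, limma adjusted p = 0.00126). The cardiac troponin I gene Tnni3 fell (log2 fold change -0.82, SE 0.16, limma adjusted p = 0.00474). The abundant genes Actc1 (log2 fold change 0.07, SE 0.22, limma adjusted p = 0.838), Tnnt2 (log2 fold change -0.10, SE 0.19, limma adjusted p = 0.729) and Myh6 (log2 fold change -0.24, SE 0.23, limma adjusted p = 0.451) did not pass. The counts of rises and falls were 4 and 2 without control replicate 2, 4 and 4 without control replicate 3, 13 and 2 without double mutant replicate 1 and 3 and 2 without double mutant replicate 2.

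Of 31 tested genes of calcium handling and excitation 5 rose (16.1%) and 7 fell (22.6%), shares near the 15.6% and 16.7% of all genes tested. Cav3, the caveolin of muscle membranes, stood at 16.3, 31.2 and 29.8 CPM in the control and 3.05, 2.48 and 3.37 CPM in the double mutant libraries, a wide separation (log2 fold change -2.87, SE 0.26, limma adjusted p = 6.79e-05). Casq2, the calcium store protein of the sarcoplasmic reticulum, stood at 9.35, 9.74 and 10.5 CPM in the control and 1.79, 2.14 and 1.39 CPM in the double mutant libraries. Casq2 fell (log2 fold change -2.20, SE 0.22, limma adjusted p = 0.000145). Pln, phospholamban, the brake of the calcium pump, stood at 102, 143 and 181 CPM in the control and 30.7, 43.4 and 45.2 CPM in the double mutant libraries. Pln fell (log2 fold change -1.81, SE 0.22, limma adjusted p = 0.000608). The junction protein Trdn (-1.40) and the connexin Gja5 (-1.08) fell too, as log2 fold changes. In contrast Asph, which also encodes junctin, stood at 146, 137 and 150.0 CPM in the control and 272, 277 and 284 CPM in the double mutant libraries. Asph rose (log2 fold change 0.94, SE 0.10, limma adjusted p = 0.000142). So did Ryr2 (0.90) and the calcium channel gene Cacna1h (0.98). The pump gene Atp2a2 (log2 fold change 0.11, SE 0.18, limma adjusted p = 0.667) did not pass. The counts of rises and falls were 5 and 7 over all libraries, and, leaving 1 out, 3 and 6 without control replicate 2, 3 and 6 without double mutant replicate 2 and 3 and 7 without double mutant replicate 3.

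Of 29 tested transcription factors of heart muscle 2 rose (6.9%) and 4 fell (13.8%), where 15.6% of all genes rose and 16.7% fell. Hand1, a marker of the outer curvature of the left ventricle, stood at 76.2, 66.5 and 83.2 CPM in the control and 36.4, 37.3 and 44.9 CPM in the double mutant libraries. Hand1 fell (log2 fold change -0.92, SE 0.13, limma adjusted p = 0.000825). Hand2, its relative of the right ventricle, stood at 137, 140.1 and 149.7 CPM in the control and 93.5, 114 and 111 CPM in the double mutant libraries. Hand2 fell (log2 fold change -0.43, SE 0.11, limma adjusted p = 0.0151). The call of Hand2 was lost without double mutant replicate 1 (limma adjusted p = 0.0512) and with Xist as a covariate (limma adjusted p = 0.107). Irx4, a ventricular factor, stood at 101, 60.7 and 62.9 CPM in the control and 30.5, 44.4 and 47.9 CPM in the double mutant libraries. Irx4 fell (log2 fold change -0.85, SE 0.23, limma adjusted p = 0.0205), but not with a replicate block (limma adjusted p = 0.0904). Irx2 (-0.62) fell as well. Nkx2-5 (log2 fold change -0.04, SE 0.18, limma adjusted p = 0.874), Gata4 (log2 fold change 0.18, SE 0.18, limma adjusted p = 0.462), Tbx5 (log2 fold change 0.16, SE 0.19, limma adjusted p = 0.562) and Tbx20 (log2 fold change -0.11, SE 0.21, limma adjusted p = 0.722) did not pass. The rises were Tbx2 (0.53) and Mef2a (0.38), and the counts of rises and falls were 1 and 3 without control replicate 1, 0 and 3 without control replicate 2, 0 and 3 without control replicate 3, 2 and 2 without double mutant replicate 1, 0 and 4 without double mutant replicate 2 and 0 and 3 without double mutant replicate 3.

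Of 22 chamber and trabeculation genes 6 rose (27.3%) and 3 fell (13.6%), beside 15.6% and 16.7% of all genes tested. The counts were 3 and 3 without double mutant replicate 2 or with Xist as a covariate. Cited1, a transcriptional co-regulator on the X chromosome, stood at 205, 269 and 217 CPM in the control and 66.2, 101 and 72.6 CPM in the double mutant libraries. Cited1 fell (log2 fold change -1.54, SE 0.17, limma adjusted p = 0.00024). Adamts1, which cuts the cardiac jelly, stood at 64.8, 69.5 and 79.3 CPM in the control and 104, 120.0 and 119 CPM in the double mutant libraries. Adamts1 rose (log2 fold change 0.68, SE 0.12, limma adjusted p = 0.00218). Sema3a stood at 51.4, 54.5 and 58.4 CPM in the control and 40.7, 30.4 and 34.8 CPM in the double mutant libraries. Sema3a fell (log2 fold change -0.64, SE 0.13, limma adjusted p = 0.00574). The natriuretic peptide genes of the chambers, Nppa (log2 fold change 0.68, SE 0.19, limma adjusted p = 0.0189) and Nppb (log2 fold change 1.11, SE 0.29, limma adjusted p = 0.0253), rose. In the second heart field and outflow tract list 2 of 25 rose (8%, under the share of all genes) and 0 fell (2 and 1 without control replicate 1 and 6 and 2 without double mutant replicate 3). Fgf10, a growth factor of this field, stood at 10.2, 11.1 and 10.03 CPM in the control and 24.9, 26.4 and 18.2 CPM in the double mutant libraries. Fgf10 rose (log2 fold change 1.10, SE 0.17, limma adjusted p = 0.00141). Ptch1, the hedgehog receptor, stood at 20.2, 24 and 31.3 CPM in the control and 64.1, 54 and 41.7 CPM in the double mutant libraries. Ptch1 rose (log2 fold change 1.07, SE 0.19, limma adjusted p = 0.00329). In cushion genes 3 of 20 rose (15%) and 4 fell (20%), again near the shares of all genes. Postn, periostin of the cushion matrix, stood at 26.4, 44 and 55.5 CPM in the control and 9.8, 3.95 and 2.18 CPM in the double mutant libraries. Postn fell (log2 fold change -3.03, SE 0.51, limma adjusted p = 0.00584). The mesenchymal factor Zeb1 stood at 65.5, 55.2 and 71.2 CPM in the control and 107, 104 and 133 CPM in the double mutant libraries. Zeb1 rose (log2 fold change 0.84, SE 0.13, limma adjusted p = 0.0017). The cushion counts were 4 and 1 without control replicate 1, 4 and 2 without double mutant replicate 1, 2 and 2 without double mutant replicate 2 and 3 and 2 without double mutant replicate 3.

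YAP and TAZ are co-activators that respond to tension on the actin cytoskeleton. Their list, which holds targets and also parts of the pathway such as Wwtr1, Tead1 and Tead3, was called upward in a larger share than all genes tested (15.6%). Of 22 tested 13 rose (59.1%) and 0 fell, with a median log2 fold change of 0.58. Ctgf, a matricellular growth factor, stood at 57.3, 50.1 and 47.7 CPM in the control and 253, 266 and 324 CPM in the double mutant libraries. Ctgf rose (log2 fold change 2.43, SE 0.12, limma adjusted p = 2.2e-06). Cyr61, its relative, stood at 56.9, 48.2 and 52 CPM in the control and 138, 118 and 165 CPM in the double mutant libraries. Cyr61 rose (log2 fold change 1.40, SE 0.13, limma adjusted p = 0.000103). Wwtr1, which encodes TAZ itself, stood at 62.7, 63.8 and 74.2 CPM in the control and 111, 107 and 126 CPM in the double mutant libraries. Wwtr1 rose (log2 fold change 0.77, SE 0.11, limma adjusted p = 0.00106). In each the groups did not overlap. Yap1 (log2 fold change 0.12, SE 0.10, limma adjusted p = 0.402) did not pass, and Amotl2 (0.67), Ajuba (0.46), Tead1 (0.59), Tead3 (0.83), Ankrd1 (0.88) and Axl (1.22) rose, as log2 fold changes. Over the alternative settings 11 to 14 rose and 0 to 1 fell.

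In TGF-beta and BMP signalling 17 of 46 tested members rose (37%) and 2 fell (4.35%), with a median of 0.34. The shares of all genes tested were 15.6% and 16.7%. Among ligands Inhba (2.44), Tgfb1 (0.46), Tgfb2 (0.56) and Bmp6 (0.89) rose, though Tgfb2 did not pass without control replicate 1 (limma adjusted p = 0.053) or without control replicate 2 (limma adjusted p = 0.0709). Among receptors Acvrl1, the endothelial ALK1, stood at 8.98, 10.1 and 10.5 CPM in the control and 24.8, 26.9 and 19.7 CPM in the double mutant libraries. Acvrl1 rose (log2 fold change 1.22, SE 0.16, limma adjusted p = 0.000624). Tgfbr2 (0.81), Bmpr1a (0.65) and Bmpr2 (0.71) rose as well. Of the signal carriers Smad1 (0.73), Smad3 (0.44), Smad4 (0.56) and Smad9 (0.64) rose. The BMP targets Id2 (-0.43) and Id3 (-0.54) fell and Id1 (log2 fold change -0.25, SE 0.21, limma adjusted p = 0.393) did not pass. The counts of rises and falls were 19 and 1 without control replicate 3, 11 and 1 without double mutant replicate 2 and 13 and 1 without double mutant replicate 3.

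The counts of Wnt signalling moved with single libraries, with 10 of 40 tested rising (25%) and 1 falling (2.5%) over all libraries. The shares of all genes tested were 15.6% and 16.7%. The Wnt counts were 4 and 3 without control replicate 1 and 6 and 2 without control replicate 2. They were 5 and 2 without double mutant replicate 1, 6 and 1 without double mutant replicate 2 and 8 and 3 without double mutant replicate 3. Fzd7, a Wnt receptor, stood at 64.2, 81.3 and 89.3 CPM in the control and 188, 156 and 155 CPM in the double mutant libraries. Fzd7 rose (log2 fold change 1.09, SE 0.14, limma adjusted p = 0.000527). Fzd1 (1.15), Fzd4 (0.67), Lrp6 (0.47) and Lrp5 (0.44) rose too. The common target gene Axin2 (log2 fold change -0.06, SE 0.18, limma adjusted p = 0.833) did not pass. Dkk3 stood at 99.4, 89.8 and 110.0 CPM in the control and 135, 171 and 184 CPM in the double mutant libraries. Dkk3 rose (log2 fold change 0.70, SE 0.14, limma adjusted p = 0.00415). The call of Dkk3 was lost in the joint fit of 4 groups (limma adjusted p = 0.0889). Of 18 tested Notch pathway genes 5 rose (27.8%) and 2 fell (11.1%). Notch3, a receptor of mural and muscle cells, stood at 50.3, 67.5 and 84.1 CPM in the control and 177, 149 and 129 CPM in the double mutant libraries. Notch3 rose (log2 fold change 1.18, SE 0.19, limma adjusted p = 0.00187). Notch4, an endothelial receptor, stood at 28.1, 28.6 and 27.9 CPM in the control and 60.2, 69.4 and 57.2 CPM in the double mutant libraries. Notch4 rose (log2 fold change 1.12, SE 0.12, limma adjusted p = 0.000155). Ligands split, with Dll4 (0.73) and Jag2 (0.88) higher and Dll1 (-0.79) lower. The Notch counts were 5 and 1 without control replicate 1, 6 and 0 without control replicate 2, 6 and 1 without control replicate 3, 5 and 1 without double mutant replicate 1, 4 and 1 without double mutant replicate 2 and 6 and 1 without double mutant replicate 3.

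Of 44 genes of the actin cytoskeleton and focal adhesions, where filamins act, 13 rose (29.5%) and 4 fell (9.09%). The shares of all genes tested were 15.6% and 16.7%. The actin counts were 16 and 2 without double mutant replicate 1 and 9 and 2 without double mutant replicate 2. Enah, which extends actin filaments, stood at 99.4, 104 and 119.8 CPM in the control and 203, 203 and 219 CPM in the double mutant libraries. Enah rose (log2 fold change 0.95, SE 0.11, limma adjusted p = 0.000249). The non-muscle myosins Myh9 (0.62) and Myh10 (0.73), talin Tln1 (0.62), paxillin Pxn (0.60) and the fibronectin receptor Itga5 (0.57) rose, as log2 fold changes, and cofilin Cfl1 (-0.56) and Tpm3 (-0.43) fell. Of 37 genes of the extracellular matrix 13 rose (35.1%) and 4 fell (10.8%). The matrix counts were 8 and 4 without control replicate 2 and 12 and 2 without double mutant replicate 1. They were 8 and 2 without double mutant replicate 2 and 10 and 2 without double mutant replicate 3. The rises held basement membrane genes: Nid1, nidogen, stood at 105, 109 and 151 CPM in the control and 251, 236 and 291 CPM in the double mutant libraries. Nid1 rose (log2 fold change 1.10, SE 0.15, limma adjusted p = 0.000724). Hspg2, perlecan, stood at 492, 331 and 469 CPM in the control and 814, 999 and 1125 CPM in the double mutant libraries. Hspg2 rose (log2 fold change 1.19, SE 0.17, limma adjusted p = 0.00108). Col4a1 (0.74), Col4a2 (0.85), Lamb1 (0.58), Lama1 (0.73) and Col18a1 (0.45) rose as well. Timp3, a metalloprotease inhibitor, stood at 63.6, 57.7 and 71.6 CPM in the control and 149, 148 and 173 CPM in the double mutant libraries. Timp3 rose (log2 fold change 1.28, SE 0.12, limma adjusted p = 7.91e-05). The fibrillar collagen Col3a1 (-1.38) and the cardiac jelly genes Has2 (-0.47) and Hapln1 (-0.55) fell, and Col1a1 (log2 fold change -0.14, SE 0.40, limma adjusted p = 0.822) did not pass.

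Among markers of other cells that a dissected heart holds, those of endocardium and endothelium were called upward in a larger share than all genes tested. Of these 25 genes 12 rose (48%) and 2 fell (8%), where 15.6% of all genes rose and 16.7% fell. The median of the list was 0.47. Its summed level was 1613, 1385 and 1649.8 CPM in the control and 1978, 2102 and 2499 CPM in the double mutant. Flt1, a receptor for VEGF that is itself a hypoxia target, stood at 70.3, 55 and 59 CPM in the control and 185, 167 and 196 CPM in the double mutant libraries. Flt1 rose (log2 fold change 1.57, SE 0.12, limma adjusted p = 2.75e-05). Sox17, an endothelial and endodermal factor, stood at 5.23, 7.3 and 4.93 CPM in the control and 25.6, 21 and 25.7 CPM in the double mutant libraries. Sox17 rose (log2 fold change 1.97, SE 0.19, limma adjusted p = 9.88e-05). Kdr (1.19), Pecam1 (0.82), Cdh5 (0.52) and Erg (0.62) rose as well, whereas Tek (log2 fold change -0.15, SE 0.14, limma adjusted p = 0.46), Emcn (log2 fold change -0.09, SE 0.15, limma adjusted p = 0.685) and the endocardial Nfatc1 (log2 fold change 0.39, SE 0.25, limma adjusted p = 0.266) did not pass and the flow-responsive Klf2 (-0.62) fell. The counts were 12 and 1 without control replicate 1, 7 and 2 without control replicate 2, 12 and 1 without double mutant replicate 1, 9 and 1 without double mutant replicate 2 and 7 and 2 without double mutant replicate 3. The part of endothelial cell number in the hypoxia, TGF-beta and basement membrane values was not tested.

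Of 10 tested epicardial genes Krt19 alone passed, with 155, 103 and 87.7 CPM in the control and 637, 807 and 699.9 CPM in the double mutant libraries. Krt19 rose (log2 fold change 2.66, SE 0.20, limma adjusted p = 3.52e-05). Wt1 (log2 fold change -0.35, SE 0.46, limma adjusted p = 0.604) and Tcf21 (log2 fold change -0.61, SE 0.68, limma adjusted p = 0.536) did not pass. Without control replicate 1 the list had 1 rise and 6 falls. The keratins Krt8 (log2 fold change 0.82, SE 0.16, limma adjusted p = 0.00512) and Krt18 (log2 fold change 0.84, SE 0.13, limma adjusted p = 0.00151) rose too, and they made up part of 4 rises of 22 in the list of pharyngeal endoderm and surface epithelium. That list summed to 307, 474 and 328 CPM in the control and 834, 644 and 443 CPM in the double mutant, and had 4 and 1 without control replicate 1, 7 and 0 without control replicate 2, 4 and 1 without double mutant replicate 1 and 9 and 0 without double mutant replicate 3. In the neural crest list 1 of 14 rose, Ets1, which endothelium also expresses (log2 fold change 0.65, SE 0.16, limma adjusted p = 0.013). Markers of liver bud and yolk sac endoderm varied within the control, with list sums of 798, 216 and 662 CPM there and 425, 563 and 570.2 CPM in the double mutant, where Alb and Hnf4a were listed at 0 in all libraries. Afp, alpha-fetoprotein, stood at 158, 3.13 and 200.0 CPM in the control and 0, 0.646 and 0.644 CPM in the double mutant libraries, which did not pass (log2 fold change -5.81, SE 1.79, limma adjusted p = 0.0694), but did without control replicate 2. The list had 2 rises and 3 falls of 17 tested, and 2 and 13 without control replicate 2, 1 and 1 without control replicate 3, 1 and 1 without double mutant replicate 2 and 1 and 1 without double mutant replicate 3. On the recovered reads 12 of the list fell with DESeq2 and 7 with edgeR. Of 8 tested blood cell genes 1 rose (12.5%) and 2 fell (25%), where 15.6% of all genes tested rose and 16.7% fell. Kit, a receptor of progenitor cells, stood at 16.6, 17.4 and 19.2 CPM in the control and 80.7, 79.4 and 89.97 CPM in the double mutant libraries. Kit rose (log2 fold change 2.20, SE 0.12, limma adjusted p = 2.75e-06). In the neuronal list 1 of 9 rose (11.1%) and 2 fell (22.2%). Stmn4, a stathmin that binds tubulin, had the largest rise of any gene the rule named, with 0.889, 3.18 and 5.37 CPM in the control and 71.9, 139 and 117 CPM in the double mutant libraries. Stmn4 rose (log2 fold change 5.09, SE 0.55, limma adjusted p = 0.00142). The neurofilament gene Nefl fell (log2 fold change -1.06, SE 0.20, limma adjusted p = 0.00403). The blood and neuronal counts each came to 1 rise and 1 fall without control replicate 2 or double mutant replicate 2, and the neuronal ones also without control replicate 3 or double mutant replicate 3. Over all libraries the shares that rose and fell were 18.2% and 0% for pharyngeal endoderm and surface epithelium. They were 11.8% and 17.6% for liver and yolk sac, 7.14% and 0% for neural crest and 10% and 0% for epicardium. Most of these shares are near or below the 15.6% and 16.7% of all genes tested. The part of these other tissues in the results above was not tested.

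**Figure D3:**
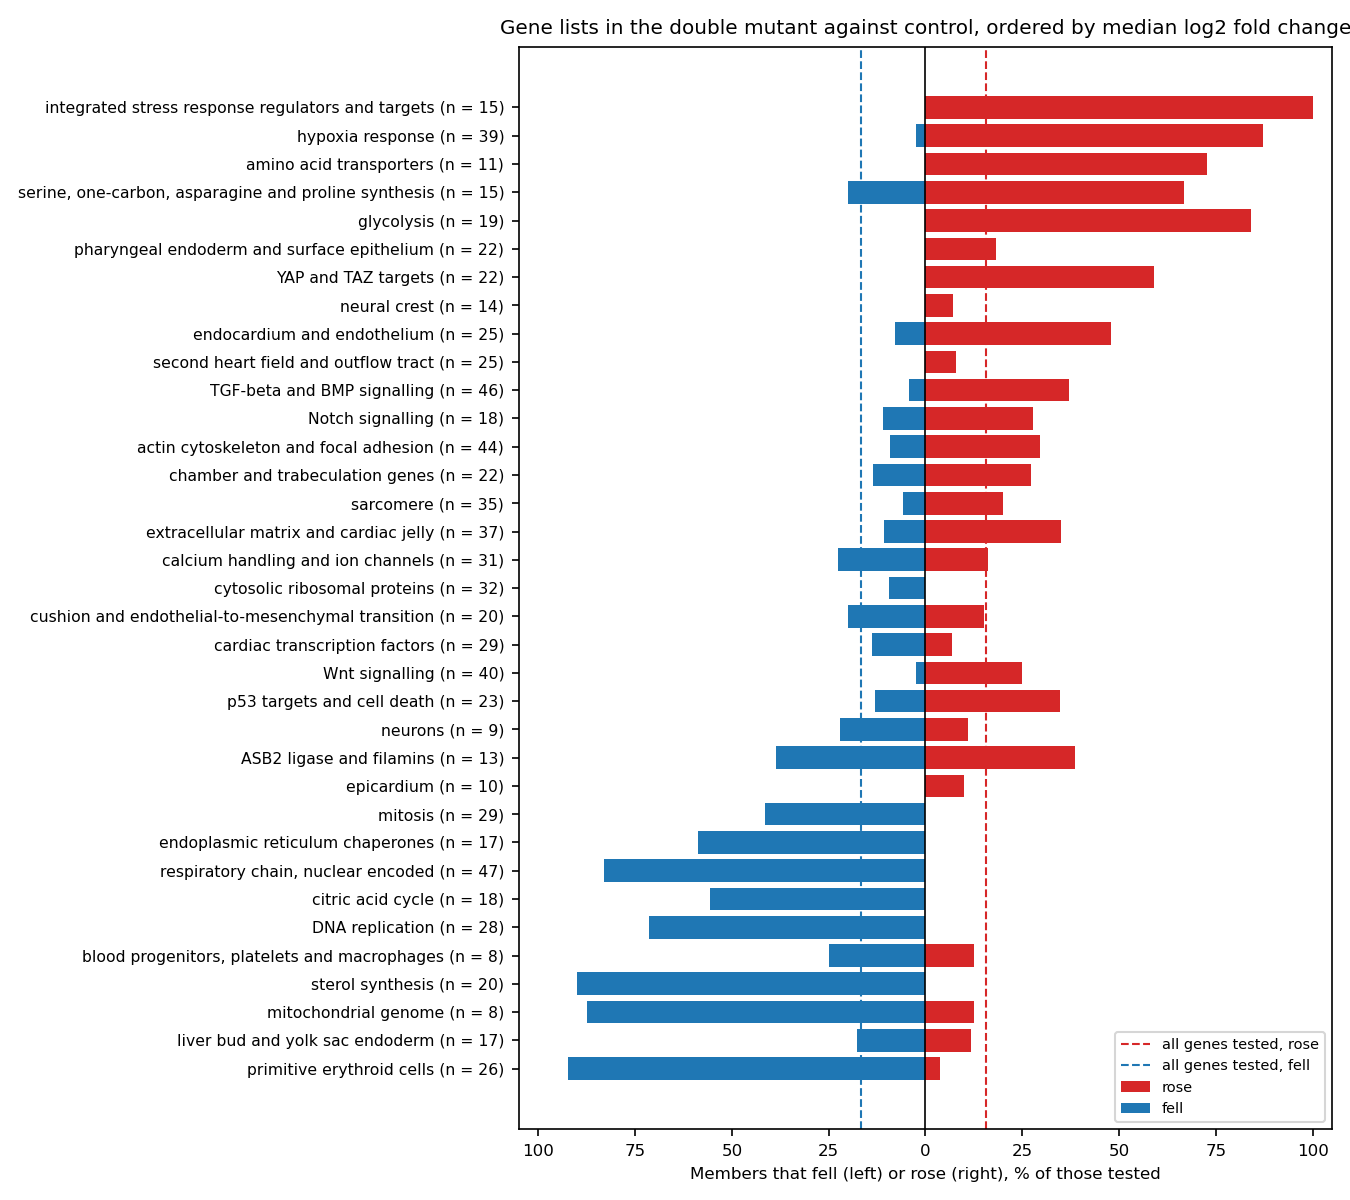
Percent of the tested members of each gene list that fell (left) or rose (right) in the double mutant against the control, ordered by the median log2 fold change of the list; dashed lines mark the shares of all genes tested, 15.6% that rose and 16.7% that fell. The longest bars to the right are the integrated stress response (15 of 15) and hypoxia response (34 of 39), and to the left the primitive erythroid markers (24 of 26) and sterol synthesis (18 of 20).

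Cytosolic ribosomal protein genes, which all cells use, were tested as a further group. Of 32 tested 0 rose and 3 fell (9.38%), where 15.6% of all genes tested rose and 16.7% fell. The falls were Rpl27 (log2 fold change -1.18, SE 0.17, limma adjusted p = 0.00108), Rps6 (log2 fold change -0.64, SE 0.21, limma adjusted p = 0.0381) and Rplp1 (log2 fold change -0.54, SE 0.18, limma adjusted p = 0.0444). The median of the list was 0.10. The calls of Rps6 and Rplp1 were lost without either of control replicates 1 and 2 and without either of double mutant replicates 2 and 3, and with Xist as a covariate (limma adjusted p = 0.0507 and 0.0514). Without double mutant replicate 3, 4 rose and 1 fell, and with the trend over gene length removed 9 rose and 1 fell. Retained pseudogene copies share sequence with these genes, so their counts are uncertain.

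Set against the Asb2 cKO, the double mutant hearts differed in 3 of 14037 genes (0.0214%), 2 higher (0.0142%) and 1 lower (0.00712%), and 471 genes had an unadjusted p under 0.05. edgeR on the recovered reads gave 3 higher and 1 lower, DESeq2 5 higher and 9 lower, and the authors' deposited table gave 6 higher and 16 lower of 15124. Without Asb2 cKO replicate 2 the limma calls were 12 higher and 14 lower. A gene that missed the threshold is not thereby shown to be alike, and the intervals bound its difference. Of 13797 genes tested in both comparisons, 12264 (88.9%) had a 95% interval of the difference between double mutant and Asb2 cKO that lay within 1 log2 unit on either side of 0. Among genes called at least 2-fold against the control this held for 723 of 977 (74%). It held for 34 of 39 hypoxia genes, 18 of 19 glycolysis genes, 47 of 47 respiratory chain genes, 27 of 28 replication genes and 44 of 44 actin and adhesion genes. It held for 9 of 15 integrated stress response genes and 7 of 19 primitive erythroid genes. In both lists the intervals were wider, and the median differences, 0.35 and -0.61, also lay further from 0. A further 7 erythroid genes were not tested against the Asb2 cKO.

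Gene by gene, the double mutant minus Asb2 cKO difference of Ndufa4l2 was 0.21 (95% interval -0.15 to 0.57), with 53.2, 80.7 and 66.7 CPM in the Asb2 cKO libraries. For Ddit4 it was 0.09 (95% interval -0.38 to 0.56), for P4ha2 0.18 (95% interval -0.27 to 0.63) and for Hk2 0.21 (95% interval -0.19 to 0.61). Trib3 was less well bounded, at 0.72 (95% interval -0.31 to 1.75), with Asb2 cKO libraries at 29.9, 128 and 51 CPM. Aldh1l2 was wider still, at 0.97 (95% interval -0.52 to 2.46), with 12.4, 104 and 18 CPM in the Asb2 cKO libraries. Of the muscle genes Lmod2 differed by 0.29 (95% interval -0.12 to 0.70), Cav3 by 0.26 (95% interval -0.30 to 0.83), Casq2 by 0.06 (95% interval -0.65 to 0.78) and Pln by 0.50 (95% interval -0.06 to 1.05). Of the filamins Flna differed by 0.28 (95% interval -0.07 to 0.64) and Flnc by 0.12 (95% interval -0.47 to 0.71). None of these passed.

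Some lists had medians away from 0 against the Asb2 cKO with no member called. The sterol synthesis median was -0.41 over 20 genes, against 0.02 over all genes. Within it Nsdhl stood at 26.1, 14.4 and 19.1 CPM in the Asb2 cKO libraries, a difference of -0.59 (95% interval -1.06 to -0.12). The median of the 19 erythroid genes tested in both was -0.61, and Slc4a1 differed by -1.09 (95% interval -1.83 to -0.35). The mitochondrial genome median was -0.35, with mt-Cytb at 453, 463 and 453 CPM in the Asb2 cKO libraries, a difference of -0.48 (95% interval -0.87 to -0.08). The integrated stress response median was 0.35 and that of pharyngeal and surface epithelium -0.37. Intervals of single genes that leave out 0 are unadjusted, and none of these genes passed after adjustment.

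The 3 genes that did pass are gene models without an established function. Gm10260 (chr13:97760072-97760632, minus strand, GRCm38, annotated as protein coding) stood at 2.65, 2.13 and 4.47 CPM in the Asb2 cKO and 154, 139 and 68.4 CPM in the double mutant libraries (log2 fold change 5.05, SE 0.32, limma adjusted p = 0.000239). Its control libraries were at 5.27, 4.12 and 4 CPM, and the Flna-labelled libraries at 129, 3.17 and 99.5 CPM, so that 1 of those was at the level of the control. Gm11942 (chr4:32964888-32965232, plus strand, a processed pseudogene) stood at 1.9, 1.18 and 1.31 CPM in the Asb2 cKO and 20.5, 19 and 18.1 CPM in the double mutant libraries (log2 fold change 3.34, SE 0.22, limma adjusted p = 0.000239). Gm13394 (chr2:28933610-28934609, minus strand, a processed pseudogene) stood at 435, 347 and 437 CPM in the Asb2 cKO and 136, 172 and 174 CPM in the double mutant libraries (log2 fold change -1.34, SE 0.15, limma adjusted p = 0.0185), while the control stood at 200.2, 163 and 182 CPM and the Flna-labelled libraries spread over 0.455, 126 and 84.4 CPM. Models of this kind can share reads with near-identical genes, so their counts are uncertain. They were named because they passed, after their values were seen.

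**Figure D4:**
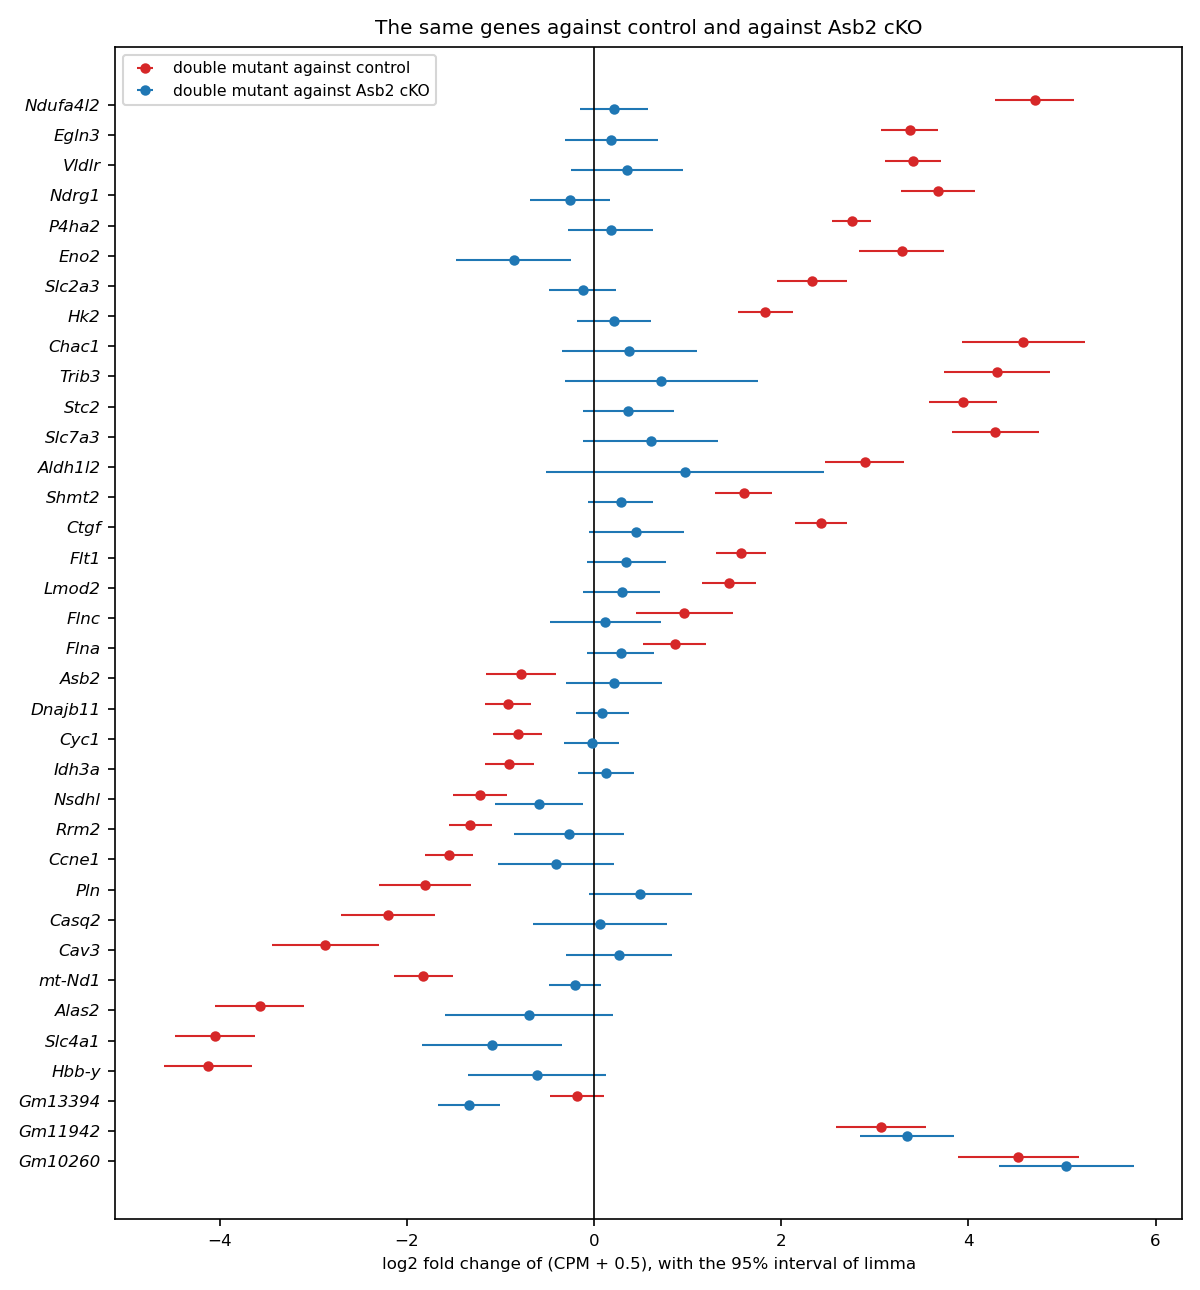
Log2 fold change with 95% interval for 36 named genes, for the double mutant against the control (red) and against the Asb2 cKO (blue); the comparisons share the double mutant libraries. Red points reach from Hbb-y (-4.12) to Ndufa4l2 (4.71). The blue points of the same genes are -0.61 and 0.21, and the blue points of Gm13394 (-1.34), Gm11942 (3.34) and Gm10260 (5.05) passed.

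Against the Flna-labelled hearts, which share the Flna label and differ in having 1 rather than 2 floxed Asb2 alleles, the double mutant had 2113 genes higher and 2281 lower (15.1% and 16.3% of 13954). With hemoglobin genes left out of the scaling the split moved to 1695 higher and 2814 lower, and the median log2 fold change of all genes was then -0.10, against -0.02 before. Without double mutant replicate 2 the calls were 1315 higher and 1395 lower, and without Flna-labelled replicates 1 or 2 the lower calls were 1359 or 1371. In the hypoxia list 35 rose and 1 fell of 39, in glycolysis 17 rose and 0 fell of 19, in the integrated stress response 13 rose and 0 fell of 14 and in sterol synthesis 0 rose and 20 fell of 20. Ndufa4l2 stood at 1.42, 1.85 and 2.13 CPM in the Flna-labelled libraries (log2 fold change 5.08, SE 0.17, limma adjusted p = 1.58e-06). Slc7a3 stood there at 0.708, 2 and 1.73 CPM (log2 fold change 4.61, SE 0.30, limma adjusted p = 6.98e-05) and Eno2 at 1.77, 2.77 and 3.75 CPM (log2 fold change 4.35, SE 0.25, limma adjusted p = 4.22e-05).

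Of 47 respiratory chain genes 8 fell and 0 rose, with a median of -0.17, where 39 fell against the control. The 8 falls are near the share of all genes that fell in this comparison (16.3%). The Flna-labelled libraries themselves had a median of -0.43 for this list against the control, with 0 of 47 members called, and mt-Nd1 stood there at 589, 659.9 and 773 CPM. In sarcomere genes 15 rose and 0 fell of 33, with a median of 0.71, and the Flna-labelled hearts had a median of -0.51 against the control with 0 called. Liver and yolk sac genes fell against the Flna-labelled hearts. Afp stood at 93.7, 372 and 134 CPM in the Flna-labelled and 0, 0.646 and 0.644 CPM in the double mutant libraries (log2 fold change -7.59, SE 0.54, limma adjusted p = 0.000187). Itih2, a plasma protein gene, stood at 19.6, 69.6 and 33.2 and 0.382, 0 and 0 CPM (log2 fold change -5.90, SE 0.46, limma adjusted p = 0.000195). Of that list 1 rose and 14 fell of 21, and 4 members had risen in the Flna-labelled hearts against the control.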

How the data were processed

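RNA of embryonic day 9.5 hearts was measured in 12 libraries, 3 for each of 4 genotype groups named in the labels. The submitters' processing notes name STAR, HTSeq, edgeR and the mm10 genome, without versions or settings; the gene annotation and strand setting are not given in the sources used here. The deposited expression values carry the unit signal: the authors call them CPM, but all (100%) are whole multiples of 1 read within 0.01 read and column sums run from 942334 to 1051801, so each column is read counts divided by a factor of its own. Plain CPM had been planned for. The authors' fold changes are in log2, and their p-value and FDR columns were used for counts of their calls alone. Their gene lengths served 1 alternative. Values of a library differ by at most 4.4e-06 CPM from table to table, which allowed the tables to be joined. Another 13 stray columns were not used. Of 15663 joined genes 15522 (99.1%) were found in GENCODE M21 (GRCm38), the source of positions.

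Each comparison used limma 3.58.1 in R 4.3.3 (options trend and robust) on log2(CPM + 0.5), over genes averaging 1 CPM or more in its 6 libraries, with Benjamini-Hochberg adjustment over all genes tested and a two-sided threshold of 0.05. CPM is not corrected for gene length, so levels were not compared between genes. Replicates of each group differed by more than sampling noise (mean chi-square per gene 20.3 to 116.8), and intervals on reads cover counting error only. Alternatives were edgeR 4.0.16 and DESeq2 1.42.0 on the recovered reads, other pseudocounts (0.1 and 2) and filters (none and 5 CPM), other scalings, library weights, limma without trend, a joint fit of 4 groups, a replicate block, Xist as a covariate, removal of a length trend and leaving out each library. The fits were also run on simulated counts with the same dispersion for every gene, and the outcome is not used as support here. The comparison, the 36 gene lists and the named genes were chosen with earlier results of these data known. Named were Asb2 and Flna, the 10 largest significant rises and falls whose groups did not overlap and whose higher group averaged 5 CPM or more, up to 3 members of each list with the smallest p (2 for other cell types), genes known from the earlier results, and the 5 largest rises and falls of each side comparison, or the genes with the smallest p where fewer passed; the text gives a part of these. Other members named with a fold change were picked after their values were seen. Promoters are the 250 bases before RefSeq starts (GRCm38.p6). For every motif the share over all promoters was not matched to the list for expression or base composition.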

Additional observations from a re-analysis of the deposited data

Results flagged for a closer look

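The double mutant and Asb2 cKO hearts differed, by the limma test of the difference itself, in Gm10260 (log2 fold change 5.05), Gm11942 (log2 fold change 3.34) and Gm13394 (log2 fold change -1.34). In Gm10260 and Gm11942 the 3 double mutant libraries lay above every Asb2 cKO and control library, and in each gene the Flna-labelled libraries were split, with 1 or 2 of 3 above 30 CPM. All 3 calls were lost in the joint fit of 4 groups, where 0 genes were higher and 0 lower.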

How the results depend on the processing

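Against the control, leaving out 1 library gave 1399 to 2164 genes higher and 1484 to 2183 lower, and Xist as a covariate gave 1536 lower. Against the Asb2 cKO, the counts of 2 higher and 1 lower became 5 and 9 with DESeq2 and 0 and 0 in the joint fit of 4 groups, the lower count was 0 with Xist as a covariate and 0 with limma without trend or robust, and leaving out 1 library gave 2 to 12 higher and 0 to 14 lower. Against the Flna-labelled hearts, leaving out 1 library gave 1315 to 2282 higher and 1359 to 2356 lower. The cause of these shifts was not tested; a fit without a library has fewer samples. Of the named genes over all alternatives, 2373 gene and setting pairs kept their side of the threshold, 42 lost the call, 11 gained it and 0 reversed. Most of these genes were named for a large fold or a small p in these same libraries. The tally therefore does not measure how stable calls are among all genes.

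Whether the replicate numbers pair the libraries cannot be settled with 3 libraries per group. After group means were removed, double mutant and control libraries of the same number correlated at -0.30, 0.07 and 0.11. For double mutant and Asb2 cKO libraries the values were 0.35, -0.07 and 0.01, and for double mutant and Flna-labelled libraries 0.28, 0.03 and 0.43. In none of the 3 comparisons did every library correlate best with its own number. Control replicate 3, Asb2 cKO replicate 1 and Flna-labelled replicates 1 and 3 did. With a replicate block the calls were 2058 higher and 2300 lower against the control, 2 and 1 against the Asb2 cKO, and 2659 and 2815 against the Flna-labelled hearts. Irx4 did not pass against the control with the block (limma adjusted p = 0.0904). Genes averaging under 1 CPM were not tested, and sex-linked transcripts differ among the control libraries.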

Other observations

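On the X chromosome 66 of 538 tested genes rose and 80 fell in the double mutant against the control (27.1% called), and on the other chromosomes apart from Y 32.6% were called, while 0 of 4 tested Y-linked genes passed. Rgs11, a regulator of G protein signalling among the 10 largest rises, stood at 0.428, 0.11 and 0.0342 CPM in the control, 5.23, 13.5 and 4.23 CPM in the Asb2 cKO and 7.66, 7.08 and 10.4 CPM in the double mutant libraries. Against the control it passed the filter of 1 CPM only through the double mutant libraries. The gut peptide gene Pyy stood at 2.17, 4.99 and 2.33 CPM in the control, 7.05, 3.88 and 7.81 CPM in the Asb2 cKO and 0.906, 1.59 and 0.743 CPM in the double mutant. Pyy fell against the control (log2 fold change -1.17, SE 0.36, limma adjusted p = 0.0336). Its call was lost without control replicate 2 (limma adjusted p = 0.133) and with Xist as a covariate (limma adjusted p = 0.188). It was also lost without double mutant replicate 1 or 3, in the joint fit of 4 groups and with the length trend removed. Cebpa, which encodes C/EBP alpha, stood at 5.62, 10.5 and 6.72 CPM in the Flna-labelled and 2.19, 0.944 and 0.842 CPM in the double mutant libraries, and the plasma protein gene Vtn at 9.41, 22.1 and 8.78 CPM and 0.787, 0.944 and 0.0248 CPM.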
